A study of Mus musculus with 24 samples.

Results

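Bhlhe40, Bhlhe41 and Ciart encode repressors that act beside the PER and CRY proteins in the mammalian circadian clock. They were measured here by every probe that the array design names Bhlhe40, Bhlhe41, Ciart or Gm129, the older name of Ciart. The rule found 4 probes of 55681, covering all 3 genes: 1 probe for Bhlhe40, 2 for Bhlhe41 and 1 for Ciart, which the files list as Gm129. The rule picked probes by name only, but the 3 genes were chosen with earlier results of these data known.

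The mice carried human PER1 with the amino acid change S714G (mutant) or human PER1 with S714 (control), both on a C57BL/6 background. All were males aged 2 months, entrained to light and dark for 10 days. Liver and white adipose tissue were collected at ZT1 and ZT13 (zeitgeber hours, which start when the lights come on), and each RNA was hybridised to a one-colour Agilent mouse array. Genotype, tissue and time gave 8 groups of 3 arrays: mutant and control liver at ZT1, mutant and control liver at ZT13, and the same 4 combinations in adipose tissue. The human PER1 allele is therefore present in every group, and the control is not a mouse without it. The promoter behind human PER1, the state of the mouse Per1 gene and the fat depot are not given in the sources used here. The submitters call the repeats independent without saying that each came from its own mouse, so the p-values below measure the spread between arrays. The array carries probes for mouse genes, and no check of the human allele was possible.

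The clock in each cell is driven by CLOCK (or its relative NPAS2) and BMAL1, the product of Arntl, which bind as pairs to the DNA sequence called the E-box and switch on nearby genes. BHLHE40 and BHLHE41, also called DEC1 and DEC2, are basic helix-loop-helix proteins of the Orange family that occupy E-boxes themselves and repress from them. CIART, also called CHRONO, binds BMAL1 and represses the CLOCK and BMAL1 pair. In mouse liver these repressor genes are themselves targets of CLOCK and BMAL1, so they form side loops of the clock.

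Since the E-box is where CLOCK, BMAL1 and the DEC proteins meet, the 250 bases before the annotated gene start are shown for the members that have an entry in the RefSeq promoter table (build GRCm38.p6, minus strand, read 5′ to 3′). Capitals mark the E-box letters CACGTG, which read the same on both strands. The Ciart window is chr3:95882229-95882478 and the Bhlhe41 window is chr6:145865421-145865670.
Ciart: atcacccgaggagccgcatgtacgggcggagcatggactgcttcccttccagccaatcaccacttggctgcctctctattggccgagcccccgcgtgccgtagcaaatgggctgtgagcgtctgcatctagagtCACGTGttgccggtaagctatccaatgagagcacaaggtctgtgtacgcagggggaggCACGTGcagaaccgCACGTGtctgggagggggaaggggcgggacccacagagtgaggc
Bhlhe41: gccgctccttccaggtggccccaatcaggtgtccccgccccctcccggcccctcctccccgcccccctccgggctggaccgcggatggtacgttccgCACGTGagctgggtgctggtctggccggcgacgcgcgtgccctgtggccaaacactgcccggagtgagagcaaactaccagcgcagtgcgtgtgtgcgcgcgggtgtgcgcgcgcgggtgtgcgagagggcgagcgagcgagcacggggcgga
The Ciart window holds 3 copies of CACGTG, which begin 116, 58 and 44 bases before the gene start. The Bhlhe41 window holds 1 copy, which begins 153 bases before the start. Among 32851 promoter windows of the same length, 6.02% hold at least 1 copy and 20 windows (0.0609%) hold 3 or more. Of 23 core clock genes, 19 have a window in the table, and 3 of them (Cry1, Per1 and Tef) hold a single copy. The D-box letters TTATGTAA, the ROR and REV-ERB half-site AGGTCA and the cAMP response element TGACGTCA, searched on both strands, have no match in either window, against 0.819%, 14.0% and 1.55% of all windows. These matches describe letters only.

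**Figure D1:**
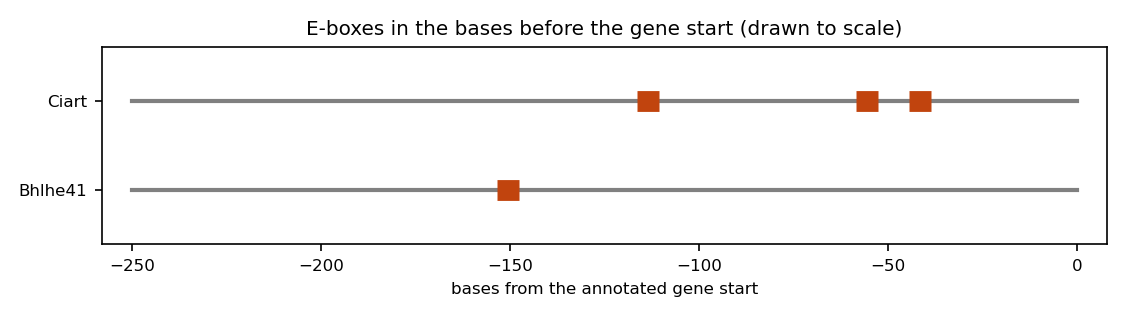
Positions of CACGTG (filled blocks) in the 250 bases before the annotated start of Ciart and of Bhlhe41, with distance from the start in bases on the horizontal axis. Ciart has 3 blocks, the nearest of which begins 44 bases before the start, and Bhlhe41 has 1, which begins 153 bases before it.

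Each probe is 60 bases long and was printed in 1 spot per array. On the design's build, mm9, the Bhlhe40 probe lies at chr6:108616309-108616368 on the plus strand. The Bhlhe41 probes lie at chr6:145811275-145811334 and chr6:145812652-145812711 on the minus strand, and the Ciart probe at chr3:95682433-95682492 on the minus strand. The exon or untranslated region under each probe was not looked up, since no annotation of that build was used. Values below are log2 intensities relative to the 75th percentile of the same array, so 0 is the level that 75% of an array's probes stay under. Levels are compared within a probe and never between probes.

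The 24 arrays lay on 3 slides of 8, and the slides do not cut evenly across the groups. On slide 1 were 2 of 3 mutant adipose ZT1 arrays and all controls taken at ZT1, from either tissue. Slide 2 held all mutant liver ZT1 arrays, the remaining mutant adipose ZT1 array, all control adipose ZT13 arrays and 1 control liver ZT13 array. Slide 3 held all mutant ZT13 arrays and 2 control liver ZT13 arrays. In liver at ZT1 and in adipose tissue at ZT13, genotype and slide therefore cannot be told apart. In liver at ZT13 and in adipose tissue at ZT1 a within-slide comparison exists. Of the non-control spots, 45.5% to 71.2% were well above background, and none was saturated. All 12 hepatocyte markers were above background on every liver array, with a summed signal of 1585 to 3091 times the 75th percentile, against 155 to 863 in adipose arrays. The 10 adipocyte markers summed to 569 to 823 in adipose arrays, against 12.7 to 21.9 in liver arrays. In whole tissue, a lower signal from fewer cells of a type and from less RNA per cell cannot be told apart.

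Ciart was far lower in mutant than in control liver at ZT13. The 3 mutant livers read -7.08, -7.25 and -7.04, and none was well above background. The 3 control livers read -1.40, -1.12 and -1.11, all well above background. The groups are far apart, and every mutant value lies below every control value. Such a separation, in either direction, held for 29.7% of the 30816 probes tested in liver. The mutant mean was -7.12 ± 0.11 and the control mean -1.21 ± 0.16 (SD, n = 3 each). Since the mutant signal has only an upper limit, the difference is given as a bound: Ciart was at least 12.9-fold lower in mutant livers. For the bound, each mutant array was given its own Ciart signal or its dimmest signal that still counted as above background, whichever was higher, and the mean of these was set against the control mean. With limma the fitted difference was -5.91 (SE 0.48) and the adjusted p was 1.1e-04, in a comparison where 3.0% of liver probes passed the threshold of 0.05. Ciart entered the liver fit only because control livers at ZT13 had it above background on all 3 arrays. That is the higher group here, so the call is not independent of how probes were chosen for testing. Within slide 3, which held 3 mutant and 2 control livers, the difference was -6.01 with an adjusted p of 4.4e-04. With normexp background correction, which adds an offset of 50 and draws dim signals together, it was -2.59 with an adjusted p of 9.9e-05.

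At ZT1 the order in liver was the other way round, but near the limit of detection. Ciart read -5.06, -3.38 and -3.15 in mutant livers, where 2 of 3 arrays were above background. It read -5.88, -5.94 and -4.48 in control livers, where none was. One control array lies inside the range of the mutants, so the groups overlap. The fitted difference was 1.57 (SE 0.48) with an adjusted p of 0.0208, in a comparison where 44.3% of probes passed. No fold is given, because the bound came out under 1. The call was lost with normexp background correction, where the difference was 0.17 and the adjusted p 0.580, and with the slide as a fixed block, where it was 1.39 with an adjusted p of 0.706. It was also lost when control replicate 1 or 2, or mutant replicate 2 or 3, was left out, with adjusted p of 0.0752, 0.0620, 0.0784 and 0.0832.

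In white adipose tissue at ZT13 Ciart was also lower in mutants, though there the genotypes lay on different slides. Ciart read -7.21, -6.63 and -6.76 in mutant adipose tissue, with no array above background. It read -2.74, -2.78 and -1.78 in control adipose tissue, with all arrays above background. No mutant value reaches the lowest control value, a separation that 24.9% of the 33787 probes tested in this tissue showed. The mutant mean was -6.87 ± 0.31 and the control mean -2.43 ± 0.56 (SD, n = 3 each), so that Ciart was at least 10.5-fold lower in mutants. The fitted difference was -4.44 (SE 0.43) with an adjusted p of 0.0045 by limma. Only 13 probes passed in this comparison, 0.0385% of those tested, and Ciart was one of them. Here too Ciart entered the fit only through the control ZT13 group, the higher side of the comparison. The 3 mutant arrays lay on slide 3 and the 3 control arrays on slide 2, so genotype and slide cannot be told apart here. Fitted with the slide as a fixed block, the difference was -4.72 and the adjusted p 0.0864, and with normexp correction -2.09 and 0.0198. Without 3 adipose arrays whose titles carry another prefix, 1 of them a control at ZT13, it was -4.61 with an adjusted p of 0.0634. Hepatocyte markers summed to 177 to 223 in these mutant arrays and 162 to 344 in the controls, and adipocyte markers to 572 to 823 and 569 to 664. Their part in the result was not tested.

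At ZT1 Ciart stayed below background in all adipose arrays. It read -5.18, -4.79 and -4.81 in mutants and -7.39, -5.51 and -6.65 in controls. The values do not overlap, as for 6.82% of probes, but both groups are dim, so no fold is given. The adjusted p was 0.485, in a comparison where 0 of 33787 probes (0.0%) passed by limma and 2611 had an unadjusted p under 0.05.

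**Figure D2:**
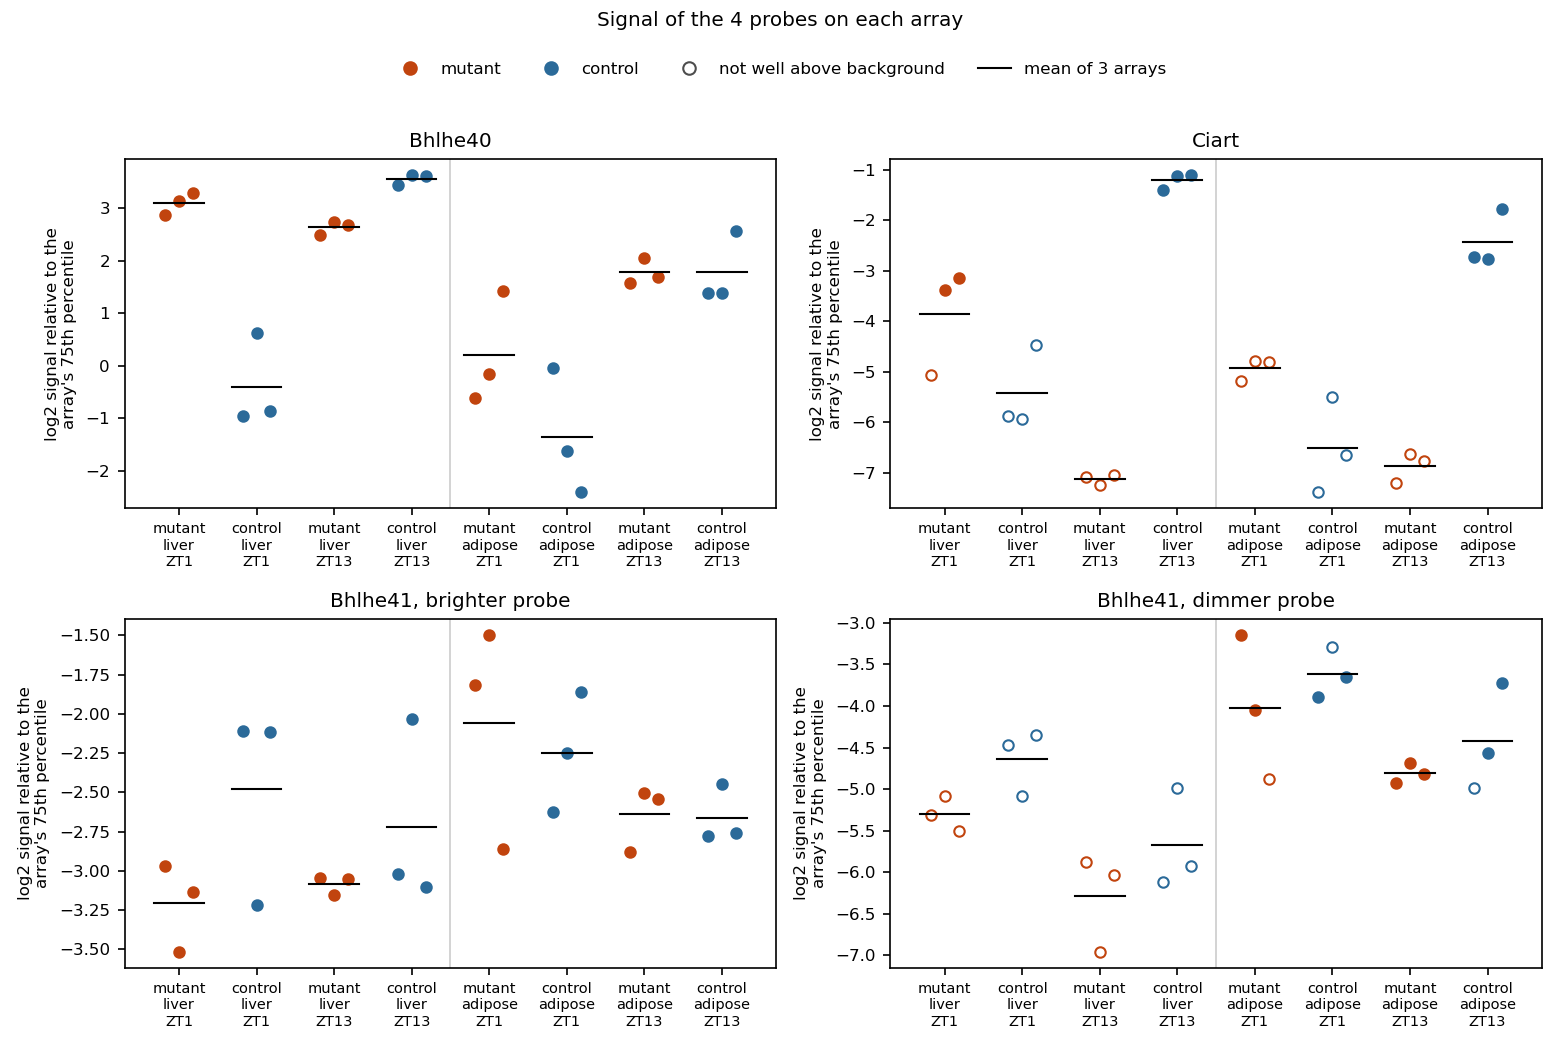
Log2 signal of each probe relative to the array's 75th percentile (vertical axis) on all 24 arrays, by group (horizontal axis), with 3 points per group, their mean as a line, and open points where the probe was not well above background. Ciart is near -7 in both mutant ZT13 groups, against -1.40 to -1.11 in control liver and -2.78 to -1.78 in control adipose tissue at ZT13. Bhlhe40 is lowest in the control ZT1 groups of both tissues.

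Seen as a daily difference, Ciart ran in opposite directions in mutant and control liver. In mutant liver the fitted ZT13 minus ZT1 difference was -3.26 (SE 0.48, adjusted p = 0.0085, with 1.95% of probes passing). No fold is given, since only 2 of 3 mutant arrays at ZT1 and none at ZT13 were above background. In control liver Ciart was at least 5.69-fold higher at ZT13 than at ZT1 (adjusted p = 7.4e-05, with 50.5% passing). The genotype-by-time term, the ZT13 minus ZT1 difference in mutants minus the same in controls, was -7.48 (SE 0.67) in liver, with an adjusted p of 7.1e-05. This term passed for 30.8% of liver probes. In mutant adipose tissue both times were below background, and the fitted difference of -1.94 had an adjusted p of 0.0511, with 1.55% of probes passing. Leaving out mutant adipose ZT1 replicate 3 gave -1.88 and an adjusted p of 0.0150. In control adipose tissue Ciart was at least 5.12-fold higher at ZT13 than at ZT1 (adjusted p = 0.0017, with 14.4% passing). The adipose genotype-by-time term was -6.02 (SE 0.61) with an adjusted p of 0.0041, and 31 probes, 0.0918% of those tested, passed. In each tissue Ciart entered the fit only through the control ZT13 group, where it is high, and both terms use that group. Both terms kept their call with the slide as a fixed block, at -7.40 (adjusted p = 0.0018) in liver and -6.25 (adjusted p = 0.0276) in adipose tissue. With normexp correction they were -2.76 (adjusted p = 2.1e-04) and -2.52 (adjusted p = 0.0293).

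The daily differences within a genotype rest on arrays of different slides. With the slide as a fixed block, mutant liver gave -3.54 (adjusted p = 0.168), control liver 3.86 (adjusted p = 0.116) and control adipose tissue 3.90 (adjusted p = 0.101). The sizes hardly moved, but none of these calls held. In mutant liver the call was also lost with normexp correction, where the difference was -0.96 and the adjusted p 0.0684. With that correction the control differences were 1.79 in liver (adjusted p = 1.1e-04) and 1.72 in adipose tissue (adjusted p = 0.0073). Some cell type markers also differed between the times, though none did in mutant liver. In mutant adipose tissue macrophage markers summed to 136 to 187 at ZT13 and 214 to 261 at ZT1. There 5 of 8 were lower at the threshold, where 1.55% of all probes passed in either direction. T and B cell markers summed to 0.849 to 1.57 at ZT13 and 2.02 to 2.51 at ZT1 in control adipose tissue. Of these, 2 of 7 were lower, where 14.4% of all probes passed in either direction. In the same comparison 1 of 10 adipocyte markers was higher and 1 of 8 macrophage markers lower. Of 6 endothelial markers 1 was higher and 1 lower. In control liver the T and B cell sums were 1.83 to 2.67 at ZT13 and 3.80 to 4.59 at ZT1. There 2 of 5 were lower, which is no more than among all probes, of which 50.5% passed in either direction. Other lists had passing markers in control liver too. Of 8 adipocyte markers 3 were higher and 2 lower, and of 8 macrophage markers 1 was higher and 3 lower. Of 6 endothelial markers 1 was higher and 2 lower. Skeletal muscle had 2 of 2 lower, hepatocytes 1 of 12 and mesothelium 1 of 4, and 1 of 3 brown adipocyte markers was higher. Their part in the daily differences of Ciart and Bhlhe40 was not tested.

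Ciart was also lower in mutants at ZT1 than in controls at ZT13, the group through which it entered the fit of each tissue. In liver, Ciart in mutants at ZT1 was lower than in controls at ZT13 by a fitted -2.65 (SE 0.48, adjusted p = 0.0158). No fold is given, since 2 of 3 mutant arrays were above background. This comparison passed for 2.8% of probes, and its groups did not overlap for 31.4%, Ciart included. In adipose tissue the mutants at ZT1 were at least 4.55-fold lower than the controls at ZT13 (adjusted p = 0.0318, with 0.731% of probes passing). Neither passed with the slide as a fixed block, at -2.47 in liver (adjusted p = 0.25) and -2.38 in adipose tissue (adjusted p = 0.282). Without control liver ZT13 replicate 2 or 3 the liver value had an adjusted p of 0.0626 or 0.0623, and the adipose value missed the threshold without any one of 5 of its 6 arrays. Over the 8 groups, the order of the Ciart means from high to low was control liver ZT13, control adipose ZT13, mutant liver ZT1, mutant adipose ZT1, control liver ZT1, control adipose ZT1, mutant adipose ZT13 and mutant liver ZT13. Only the first 2 steps of that order passed, at adjusted p of 0.0385 and 0.0182, and each of the lowest 5 groups had no array above background.

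Several core clock genes were among those most like Ciart or most opposite to it. Over 24 arrays, after the mean of each tissue was subtracted, the 5 of 16341 genes most like Ciart were Pcsk4 (Pearson r = 0.915), Nr1d2 (0.846), Per3 (0.841), Mthfd1l (0.832) and Dbp (0.822). Nr1d2 encodes the repressor REV-ERBβ, Per3 a PERIOD protein and Dbp a PAR-bZIP transcription factor. The most opposite genes were Arntl (-0.909), Clock (-0.899) and Adamts4 (-0.861). These are descriptions over arrays that share slides, groups and, for Ciart, many values below background.

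Arntl, which encodes the CIART partner BMAL1, averaged 1.57 ± 0.13 in mutant liver at ZT13 and -2.34 ± 0.41 in control liver (SD, n = 3 each). Its difference there was 3.91 (adjusted p = 5.2e-06), against -2.73 at ZT1 (adjusted p = 1.9e-05). In adipose tissue at ZT13 Arntl was higher in mutants by 5.53 (adjusted p = 5.5e-05), with 2 of 3 control arrays above background. Clock was higher in mutant than in control liver at ZT13 by 1.73 (adjusted p = 4.2e-04). Dbp fell by 3.59 in mutant liver at ZT13 (adjusted p = 1.7e-06). In liver at ZT13, Arntl and Clock were thus higher in mutants and Ciart and Dbp lower.

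**Figure D3:**
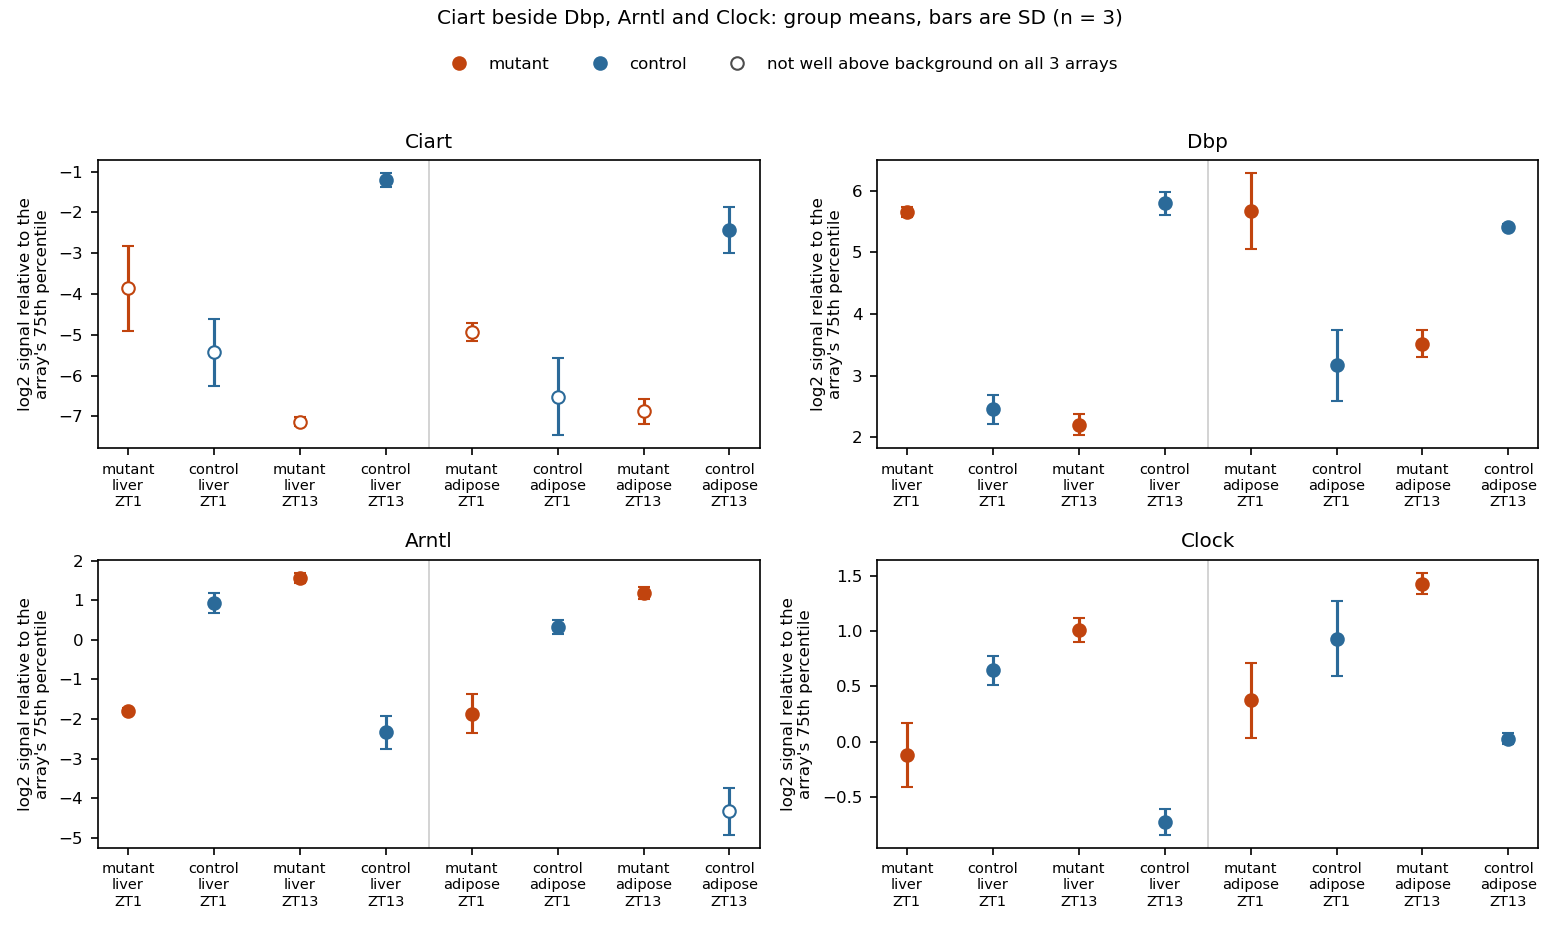
Group means of the log2 signal of Ciart, Dbp, Arntl and Clock relative to the array's 75th percentile (vertical axis) in the 8 groups (horizontal axis). Bars are SD over 3 arrays, and open symbols mark groups where the probe was not above background on all 3. In both tissues at ZT13 Ciart and Dbp are lower, and Arntl and Clock higher, in mutants than in controls. The Dbp difference of -1.90 and the Clock difference of 1.40 in adipose tissue at ZT13 did not pass (adjusted p = 0.139 and 0.115).

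Bhlhe40 was high in mutant liver at both times and low in control liver at ZT1 alone. At ZT1 it read 2.87, 3.13 and 3.29 in mutant livers, against -0.97, 0.63 and -0.87 in control livers. All arrays were above background, and the lowest mutant value lies well above the highest control value, as held in either direction for 51.5% of liver probes. The mutant mean was 3.10 ± 0.21 and the control mean -0.40 ± 0.89 (SD, n = 3 each). The difference was 3.50 (SE 0.34), or 11.3-fold, with an adjusted p of 6.0e-05 by limma. The mutant arrays lay on slide 2 and the control arrays on slide 1. With the slide as a fixed block, which borrows the slide difference from other groups, the difference was 1.69 with an adjusted p of 0.584. With a random slide block it was 2.79 with an adjusted p of 0.0894.

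The same slide pattern ran through the whole set of Bhlhe40 values. The 8 arrays of slide 1 read between -2.41 and 0.63, and the other 16 arrays between 1.39 and 3.62. Of the 35310 probes tested over both tissues, 5.44% separated slide 1 from the other slides without overlap. Slide 1 held ZT1 arrays alone, 6 of them from controls. The part of the slide in the ZT1 result cannot be told apart from that of the genotype in liver. In adipose tissue the mutant ZT1 array on slide 2 read 1.42, and the 2 mutant ZT1 arrays on slide 1 read -0.62 and -0.17.

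**Figure D4:**
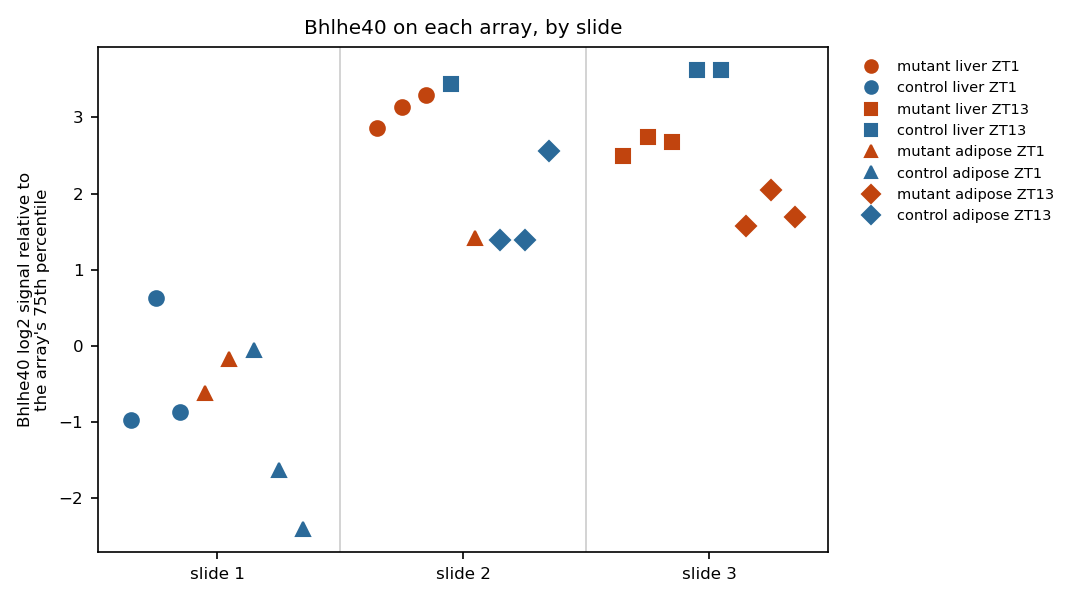
Bhlhe40 log2 signal relative to the array's 75th percentile (vertical axis) for each of the 24 arrays, by slide (horizontal axis), with colour for genotype and symbol for tissue and time. Slide 1 lies between -2.41 and 0.63, below all arrays of slides 2 and 3. On slide 3 the 3 mutant liver ZT13 arrays (2.49 to 2.74) lie below the 2 control liver ZT13 arrays (both 3.62).

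Some cell type markers also differed in the liver ZT1 comparison, where 44.3% of all probes passed. Hepatocyte markers summed to 1987 to 2239 in mutant livers at ZT1 and 2553 to 2797 in controls, and 4 of 12 were lower at the threshold, where 25.7% of all probes were. Adipocyte markers summed to 18.5 to 21.9 in mutants and 12.7 to 14.0 in controls. Of the 8 tested 4 were higher and 2 lower, where 18.6% of all probes were higher and 25.7% lower. T and B cell markers summed to 2.59 to 2.82 in mutants and 3.80 to 4.59 in controls. There 2 of 5 were lower, beside the same 25.7%. Of 6 endothelial markers 2 were higher and 2 lower, and of 8 macrophage and Kupffer cell markers 2 were higher. Of 2 skeletal muscle markers 1 was lower, and no brown adipocyte, mesothelial, erythroid or fibroblast marker passed. The part of these markers in the result was not tested.

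At ZT13 the Bhlhe40 difference in liver had the opposite sign. The mutant livers read 2.49, 2.74 and 2.68, against 3.44, 3.62 and 3.62 in control livers. The groups do not overlap, as for 29.7% of liver probes. The means were 2.64 ± 0.13 in mutants and 3.56 ± 0.10 in controls (SD, n = 3 each), a difference of -0.92 (SE 0.34, 95% interval -1.67 to -0.18). Its adjusted p was 0.205, so it did not pass. Within slide 3 the difference was -0.98 with an adjusted p of 0.0239, over 3 mutant and 2 control arrays.

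In mutant liver the ZT13 minus ZT1 difference of Bhlhe40 was -0.46 (95% interval -1.20 to 0.29, adjusted p = 0.623). In control liver Bhlhe40 rose at ZT13 relative to ZT1 by 3.96 (SE 0.34, adjusted p = 1.5e-05). The genotype-by-time term was -4.42 (SE 0.48, adjusted p = 2.1e-04). Both calls were lost with the slide as a fixed block, where the control difference was 2.03 (adjusted p = 0.441) and the term -2.67 (adjusted p = 0.305). At opposite times, mutant liver at ZT1 and control liver at ZT13 differed by -0.46 (95% interval -1.21 to 0.28, adjusted p = 0.547).

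Bhlhe40 in adipose tissue showed no genotype difference past the threshold. At ZT1 the mutants read -0.62, -0.17 and 1.42 and the controls -0.05, -1.62 and -2.41. The groups overlap, and the difference of 1.57 (SE 0.63) had an adjusted p of 0.588. Within slide 1 it was 0.97 with an adjusted p of 0.806. Hepatocyte markers summed to 155 to 283 in these mutant arrays and 235 to 863 in the controls, and their part was not tested.

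At ZT13 the adipose mutants read 1.58, 2.05 and 1.69, and the controls 1.39, 1.39 and 2.57. The groups overlap, and the difference was -0.0069 with a 95% interval of -1.38 to 1.36. Mutant adipose tissue had a ZT13 minus ZT1 difference of 1.56 (adjusted p = 0.157). Without mutant ZT1 replicate 3, the array on slide 2, it was 2.17 with an adjusted p of 0.0182. In control adipose tissue the difference was 3.14 (SE 0.63, adjusted p = 0.0198). The control call was lost with the slide as a fixed block (1.33, adjusted p = 0.686) or as a random block (2.43, adjusted p = 0.121). It was also lost without control ZT1 replicate 3, control ZT13 replicate 1 or control ZT13 replicate 3, with adjusted p of 0.0650, 0.0644 and 0.0711.

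Between tissues, Bhlhe40 was higher in liver than in adipose tissue in mutants at ZT1 by 2.89 (SE 0.54, adjusted p = 1.5e-04, with 52.5% of probes passing) and in controls at ZT13 by 1.78 (SE 0.54, adjusted p = 0.0087, with 54.4% passing). In controls at ZT1, where all arrays shared slide 1, the difference of 0.96 had an adjusted p of 0.155, with 46.4% of probes passing. Without control adipose ZT1 replicate 1 it was 1.61 with an adjusted p of 0.0183. In mutants at ZT13, all on slide 3, the difference of 0.86 had an adjusted p of 0.182, with 54.9% of probes passing. With the slide as a fixed block the first and the second difference were 1.68 and 1.66, with adjusted p of 0.0611 and 0.0609, and with quantile normalization the second was 1.35 with an adjusted p of 0.0681. The order of the Bhlhe40 means from high to low was control liver ZT13, mutant liver ZT1, mutant liver ZT13, control adipose ZT13, mutant adipose ZT13, mutant adipose ZT1, control liver ZT1 and control adipose ZT1. No step between neighbours in that order passed, with adjusted p from 0.0568 to 1.0.

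The genes whose values ran most like Bhlhe40 were not those most like Ciart. The 5 most alike were Btaf1, Rab11b, Rbms1, Haus5 and Kif13a (Pearson r from 0.962 to 0.973 over 24 arrays), and none is among the 23 core clock genes. The most opposite were Meis2 (-0.963), Evi5 (-0.950) and Gzmk (-0.947). All of these alike and opposite genes also separated slide 1 from the other slides without overlap, as 5.44% of the 35310 probes tested did. None of the 5 genes most like Ciart did. The alike and opposite genes were picked by their correlation with Bhlhe40, which itself separates the slides. Their separation is therefore no independent result. Bhlhe40 and Ciart correlated at 0.396 with each other over the same 24 arrays.

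Bhlhe41, the paralog of Bhlhe40, showed no genotype difference past the threshold with either probe. Its brighter probe, at chr6:145812652-145812711, was above background on every array. At ZT1 it read -2.97, -3.52 and -3.13 in mutant livers, against -2.11, -3.21 and -2.11 in control livers. One control array lies within the range of the mutants, so the groups overlap. The difference was -0.73 (SE 0.33, 95% interval -1.46 to 0.0069, adjusted p = 0.0968). It passed without control liver ZT1 replicate 2 (-1.10, adjusted p = 0.0111) and with normexp correction (-0.72, adjusted p = 0.0334), and was 0.48 with the slide as a fixed block (adjusted p = 0.867).

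At ZT13 this probe read -3.04, -3.15 and -3.05 in mutant livers, against -3.02, -2.03 and -3.10 in control livers. One control array stands above the rest, and the difference of -0.36 (95% interval -1.10 to 0.37) had an adjusted p of 0.713. In adipose tissue it read -1.82, -1.50 and -2.86 in mutants and -2.63, -2.25 and -1.86 in controls at ZT1. It read -2.88, -2.50 and -2.54 in mutants and -2.78, -2.45 and -2.76 in controls at ZT13. Both pairs overlap, with differences of 0.19 (95% interval -0.55 to 0.92) at ZT1 and 0.02 (95% interval -0.72 to 0.76) at ZT13.

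No ZT13 minus ZT1 difference of this probe passed in any genotype or tissue, with values from -0.58 in mutant adipose tissue to 0.12 in mutant liver. Without mutant adipose ZT1 replicate 3 the value in mutant adipose tissue was -0.98 with an adjusted p of 0.0143. Of the 4 comparisons of liver with adipose tissue, 1 passed: in mutants at ZT1 the probe was lower in liver by -1.15 (SE 0.35, adjusted p = 0.0097). Of all probes 52.5% passed in that comparison, and 46.4% to 54.9% did over the 4. That call was lost without mutant adipose ZT1 replicate 2 (-0.87, adjusted p = 0.0632) and with the slide as a fixed block (-0.34, adjusted p = 0.551). The means ran from -2.06 in mutant adipose tissue at ZT1, through control adipose ZT1, control liver ZT1, mutant adipose ZT13, control adipose ZT13, control liver ZT13 and mutant liver ZT13, to -3.21 in mutant liver at ZT1. No neighbours in this order differed at the threshold.

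The dimmer Bhlhe41 probe, at chr6:145811275-145811334, was above background on none of the 12 liver arrays and so was not tested in liver alone. In adipose tissue it was above background on 2 of 3 mutant and 2 of 3 control arrays at ZT1, and on 3 mutant and 2 control arrays at ZT13. Its means were -4.02 ± 0.86 in mutants and -3.61 ± 0.30 in controls at ZT1, and -4.81 ± 0.12 in mutants and -4.43 ± 0.64 in controls at ZT13 (SD, n = 3 each). The differences of -0.41 and -0.39 had adjusted p of 0.914 and 1.0. For this probe the fitted liver minus adipose difference was -1.27 in mutants at ZT1 (adjusted p = 0.0124, with 52.5% of probes passing). In controls it was -1.02 at ZT1 (adjusted p = 0.0451, with 46.4% passing) and -1.25 at ZT13 (adjusted p = 0.0135, with 54.4% passing). No fold is given for these, since only 2 of 3 adipose arrays were above background in each. In mutants at ZT13 liver was at least 1.07-fold lower than adipose tissue (adjusted p = 0.0044, with 54.9% passing). Only mutant adipose tissue at ZT13 had the probe above background on all 3 arrays, which brought it into the fits. That is the higher group of this comparison, so the call is not independent of how probes were chosen for testing. With normexp correction the fitted value turned positive for 3 of these 4 comparisons and did not pass. The 2 Bhlhe41 probes correlated at 0.603 with each other over 24 arrays, and at -0.605 (brighter) and -0.661 (dimmer) with Bhlhe40.

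The genes most like the brighter Bhlhe41 probe were Mex3b, Olfr1131, Il22, Gm11810 and Spag9, with Pearson r from 0.853 to 0.864. The most opposite were Zc4h2 (-0.887), Svil (-0.870) and Otud4 (-0.864). No core clock gene was among them. Correlation with Ciart was 0.0288 for the brighter and 0.0935 for the dimmer probe.

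**Figure D5:**
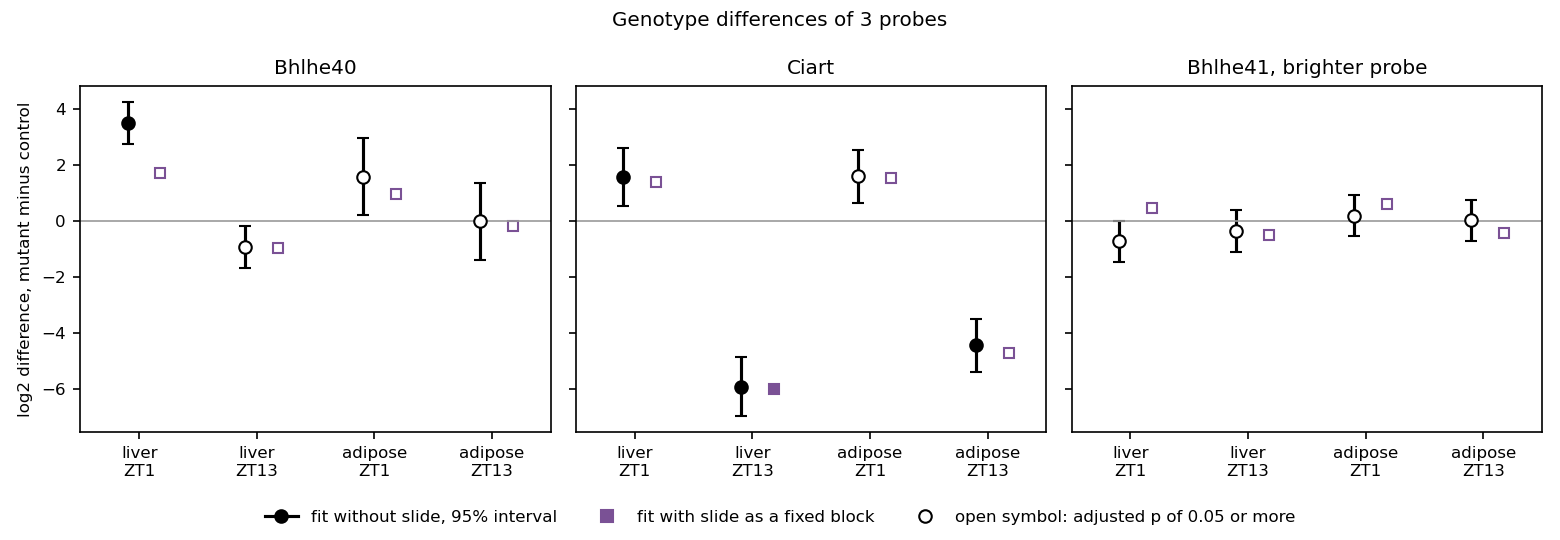
Log2 difference, mutant minus control (vertical axis), of Bhlhe40, Ciart and the brighter Bhlhe41 probe in each tissue and time (horizontal axis). Circles with bars are fits without the slide and their 95% intervals, squares the fit with the slide as a fixed block, and open symbols did not pass. Ciart at ZT13 is far below 0 in liver (-5.91) and adipose tissue (-4.44), and these fitted values exceed the bounds that dim mutant signals allow. Bhlhe40 in liver at ZT1 moves to 1.69 with the slide block, against 3.50 without it.

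The genotype effects on the members were also compared between tissues. The effect in liver minus the effect in adipose tissue was 1.93 for Bhlhe40 at ZT1 (adjusted p = 0.150, with 1.37% of probes passing) and -0.91 at ZT13 (adjusted p = 1.0, with 0.164% passing). For Ciart it was -0.02 at ZT1 (adjusted p = 0.989) and -1.48 at ZT13 (adjusted p = 0.775). For the brighter Bhlhe41 probe it was -0.91 at ZT1 (adjusted p = 0.266) and -0.38 at ZT13 (adjusted p = 1.0). None passed over all arrays. Without mutant adipose ZT1 replicate 3 the ZT1 values were 2.53 for Bhlhe40 (adjusted p = 0.0152) and -1.32 for Bhlhe41 (adjusted p = 0.0390). Among levels, Ciart was higher in liver than in adipose tissue in controls at ZT13 by 1.22 (SE 0.48, adjusted p = 0.0385, with 54.4% of probes passing). That call was lost when any one of 5 of the 6 arrays was left out, with differences from 1.05 to 1.32, and with the slide as a fixed block (1.03, adjusted p = 0.258).

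The other genes of the pathway are given by count. Of 23 core clock genes tested in liver at ZT1, 8 were higher and 7 lower in mutants, with a median difference of 0.09 against -0.13 over all probes, of which 18.6% were higher and 25.7% lower. At ZT13 in liver, 5 were higher and 6 lower, with a median of -0.07 against 0.02 over all probes, of which 1.49% were higher and 1.51% lower. The 5 higher ones were Arntl, Clock, Npas2, Cry1 and Nfil3, and the 6 lower ones were Per1, Per3, Nr1d2, Dbp, Tef and Usp2. Whether the mouse Per1 probe also binds RNA of human PER1 was not checked. In adipose tissue no core clock gene passed at ZT1, and at ZT13 Arntl was higher (5.53) and Nr1d2 lower (-2.57, adjusted p = 0.0112), where 0.0148% of all probes were higher and 0.0237% lower. For the genotype-by-time term, 6 passed with a positive and 7 with a negative value in liver, where 17.3% and 13.6% of all probes did. In adipose tissue 2 passed with a positive and 6 with a negative value, where 0.0414% and 0.0503% of all probes did.

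DEC1 or DEC2 is reported to repress 7 listed genes: Per1, Dbp, Nr1d1, Cyp7a1, Srebf1, Rxra and Pparg. In liver at ZT1, 4 of these 7 were higher in mutants and none lower, where 18.6% of all probes were higher and 25.7% lower. The median was 0.98, against -0.13 over all probes, in the comparison where genotype and slide cannot be told apart. The higher ones were Per1 (3.34), Dbp (3.20), Nr1d1 (1.01, a REV-ERB repressor) and Cyp7a1 (0.98, the rate-limiting enzyme of bile acid synthesis). In liver at ZT13, 2 were lower in mutants and none higher, Per1 by -1.67 and Dbp by -3.59. Of all probes 1.51% were lower and 1.49% higher there. The median was -0.52, against 0.02 over all probes. In adipose tissue 6 were tested and none passed at either time, where 0.0% of all probes passed at ZT1 and 0.0385% at ZT13. The medians were 0.94 at ZT1 and -0.72 at ZT13, against -0.03 and 0.06 over all probes. The core clock list also holds Per1, Dbp and Nr1d1. The Per1 values may include RNA of human PER1, since binding of that RNA to the mouse Per1 probe was not checked.

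Relatives of the DEC proteins in the Orange family (Hes and Hey genes) had 6 of 10 members tested in liver. At ZT1, Hes6 (0.68) and Hey1 (0.63) were higher and Hes5 (-0.82) and Hes7 (-1.17) lower in mutants, so that 4 of 6 passed where 44.3% of all probes did. At ZT13 none of the 6 passed in liver, where 3.0% of all probes did. In adipose tissue none of 7 passed at either time, where 0.0% of all probes did at ZT1 and 0.0385% at ZT13. Among 7 corepressor partners, which the clock repressors recruit or contact, the deacetylase gene Hdac1 was higher (1.18), and Sirt1 (-1.05), another deacetylase, and the glucocorticoid receptor gene Nr3c1 (-0.73) were lower in mutant liver at ZT1. These 3 of 7 stand beside the same 44.3%. None of the 7 passed in liver at ZT13 or in adipose tissue, beside the same low shares of all probes.

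Bhlhe40 is also a known target of hypoxia signalling, so 18 hypoxia responsive genes were counted. In liver at ZT1, 6 were higher and 6 lower in mutants, where 18.6% of all probes were higher and 25.7% lower. The median was -0.21, against -0.13 over all probes. Egln1 (1.97), which encodes an oxygen sensor that marks HIF for degradation, and Pdk1 (1.30), a kinase gene of pyruvate metabolism, were higher. Adm (-1.53), the adrenomedullin gene, and Ndrg1 (-1.44) were lower. At ZT13 none of 18 passed in liver (median -0.0028, against 0.02 over all probes) or adipose tissue (median 0.13, against 0.06). None passed in adipose tissue at ZT1 either. Few probes passed at all there: 3.0% in liver at ZT13, and 0.0385% at ZT13 and 0.0% at ZT1 in adipose tissue.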

How the data were processed

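The deposited scanner output, per the file headers, came from Agilent Feature Extraction 10.7.3.1 and gives each spot's background-subtracted intensity together with flag columns. The deposited value table holds log2 values, credited to the authors, with column medians of -3.92 to -3.03. At least 99.8% of its probes lay within 0.01 of log2 of the array's processed signal minus a constant, so its scale and direction were settled. The 75th percentile of each column lay between -5.5e-04 and 0, so the constant matched the array's 75th percentile. The table served as an alternative, but its values nearly repeat those of the main fits.

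Control spots and spots flagged by the scanner as outliers were left out, and spots of a probe were averaged. The log2 processed signal was set relative to each array's 75th percentile, whose signal was 376 to 1808 units. A probe entered a fit when some group had it above background on each of its 3 arrays. The tests used limma 3.58.1 under R 4.3.3 with 1 mean per group and two-sided moderated statistics: 30816 probes in liver, 33787 in adipose tissue (12 arrays each) and 35310 over 24 arrays. P-values were adjusted by Benjamini-Hochberg over every probe of the fit, with 0.05 as threshold. Alternatives were normexp, quantile normalization, no filter, brightest probes only, 1 fit over 24 arrays, the slide or the replicate number as a block, and left-out arrays. Python 3.11.15, pandas 2.3.3 and matplotlib 3.10.9 handled tables and figures. Probe names came from RefSeq accessions (26762 probes), current symbols (3819), synonyms (639) or the files (24461).

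All member probes are reported. Other genes named are the 5 most alike and 3 most opposite to each member by Pearson r, each gene by its brightest probe. From lists written from textbook knowledge, up to 2 genes per direction with the lowest p are named, and the further genes of these lists were chosen after their values were seen. The members and lists were chosen with earlier results of these data known. Same-numbered replicates correlated at -0.497 to 0.151 in their deviations, and the numbers were not treated as pairs. Whether arrays of the same number came from the same mouse is not given, and these correlations cannot settle it. On simulated data for the ZT13 comparison, liver recovered 92 of 100 probes changed by 3 log2 units and 75 of 100 changed by 1.5, with 8 false calls. Adipose tissue recovered 88 and 48 of 100, with 12 false calls. The simulated noise was independent between arrays and held no slide effect. In the real data arrays of 1 slide had a consensus correlation of 0.363. These rates therefore cannot show how the fits behave where genotype and slide coincide. With 3 arrays per group, the number of arrays limits the precision.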

Additional observations from a re-analysis of the deposited data

Results flagged for a closer look

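In 3 cases the genotype difference of a gene itself differed between the times, as tested by the genotype-by-time term of limma. For Ciart in liver the term was -7.48 (adjusted p = 7.1e-05), with a fitted genotype difference of -5.91 at ZT13 and 1.57 at ZT1. For Ciart in adipose tissue the term was -6.02 (adjusted p = 0.0041), with genotype differences of -4.44 at ZT13 and 1.59 at ZT1. For Bhlhe40 in liver the term was -4.42 (adjusted p = 2.1e-04), with genotype differences of -0.92 at ZT13 and 3.50 at ZT1. The Bhlhe40 term was -2.67 (adjusted p = 0.305) with the slide as a fixed block, and the liver ZT1 genotypes lay on different slides. Fitted Ciart values include signals below background, and Ciart entered the fit of each tissue only through the control ZT13 group.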

How the results depend on the processing

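Of 506 alternative values for the genotype differences, daily differences and genotype-by-time terms of Bhlhe40, Ciart and the brighter Bhlhe41 probe, 475 kept their side of the threshold, 23 lost the call and 8 gained it. The alternatives include the authors' value table, which nearly repeats the main values, so its agreement adds little. No value that passed changed sign. Of the 475, 28 had the other sign, all in comparisons that passed neither way: Bhlhe40 in adipose tissue at ZT13 and 8 comparisons of the brighter Bhlhe41 probe, such as its liver ZT1 difference (0.48 with the slide as a fixed block) and its daily difference in control liver (0.27 with quantile normalization). With the slide as a fixed block, calls were lost for Bhlhe40 in liver at ZT1 (1.69), control liver over time (2.03), control adipose tissue over time (1.33) and the liver genotype-by-time term (-2.67). The same block ended the Ciart calls in liver at ZT1 (1.39), adipose tissue at ZT13 (-4.72), and over time in mutant liver (-3.54), control liver (3.86) and control adipose tissue (3.90). With the slide as a random block, calls were lost for Bhlhe40 in liver at ZT1 (2.79) and control adipose tissue over time (2.43) and for Ciart in liver at ZT1 (1.53). Within 1 slide, Bhlhe40 passed in liver at ZT13 (-0.98). With normexp, Ciart lost its calls in liver at ZT1 (0.17) and mutant liver over time (-0.96), and Bhlhe41 passed in liver at ZT1 (-0.72). Normexp also reversed the dimmer Bhlhe41 probe's liver minus adipose difference in mutants at ZT13 (0.23) and in controls at ZT1 (0.17) and ZT13 (0.026). Without the filter, Ciart in liver at ZT1 stayed at 1.57 and lost its call. Ciart in mutant adipose tissue over time passed at -1.94 with only brightest probes or with 1 fit over 24 arrays, and Ciart in adipose tissue at ZT13 lost its call without the arrays of another title prefix (-4.61). The causes were not tested.

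Leaving out 1 array gave ranges of 1.15 to 2.17 for Bhlhe40 over time in mutant adipose tissue and 2.62 to 3.80 in control adipose tissue. The brighter Bhlhe41 probe ranged from -0.98 to -0.30 in mutant adipose tissue over time and -1.10 to -0.54 in liver at ZT1. Ciart ranged from -2.07 to -1.77 in mutant adipose tissue over time and 1.21 to 2.16 in liver at ZT1. Ciart at ZT13 kept its call without any single array, at -6.01 to -5.85 in liver and -4.61 to -4.11 in adipose tissue. In adipose tissue the highest adjusted p by limma among these was 0.04995, just under the threshold.

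With the replicate number as a block, of 77 values of the 4 probes 2 lost their call: Ciart in adipose tissue, mutant ZT1 minus control ZT13 (-2.49, adjusted p = 0.0545), and the dimmer Bhlhe41 probe, liver minus adipose in controls at ZT1 (-1.02, adjusted p = 0.0604). The Ciart ZT13 differences had adjusted p of 2.3e-04 in liver and 0.0116 in adipose tissue under this block, and the Bhlhe40 liver ZT1 difference 1.8e-04. The numbers share no stated origin.

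Counts of probes past the threshold moved more, and are given as the fitted count and its lowest and highest over all other settings, left-out arrays included. Genotype gave 13637 (106 to 16146) in liver at ZT1, 924 (264 to 1543) in liver at ZT13, 0 (0 to 1211) in adipose tissue at ZT1 and 13 (3 to 71) in adipose tissue at ZT13. Time gave 601 (74 to 634) in mutant liver, 15551 (229 to 17424) in control liver, 523 (52 to 13489) in mutant and 4880 (69 to 11137) in control adipose tissue. The genotype-by-time term gave 9504 (349 to 12878) in liver and 31 (7 to 392) in adipose tissue. The adipose term fell to 7 probes without mutant ZT13 replicate 1 or 3, and the adipose ZT13 count was 3 without mutant ZT13 replicate 1 and 71 without control ZT13 replicate 3. Leaving out 1 array gave 113 to 219 over time in mutant liver, 73 to 13428 in mutant adipose tissue (the highest without ZT1 replicate 3) and 247 to 3872 in control adipose tissue. With quantile normalization the share of calls that were higher was 52.6% and not 42.0% in liver at ZT1, 45.4% and not 56.0% for the liver genotype-by-time term, 41.1% and not 19.9% over time in mutant adipose tissue, 65.8% and not 42.1% in control adipose tissue, and 20.0% and not 38.5% in adipose tissue at ZT13. The median of all probes in liver at ZT1 was 0.0048 with it and -0.13 without. Dim Ciart signals limit what its fitted differences can show.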
